A study of Mus musculus with 6 samples.

Results

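Constitutive strong gene-end regions are the stretches of open chromatin at the ends of protein-coding genes that were among the strongest in every library of old and young mouse macrophages. Open chromatin was mapped by Omni-ATAC, an ATAC-seq variant in which a transposase cuts and tags accessible DNA. The old group was 3 libraries of bone marrow derived macrophages (labelled F4/80+CD169+) of wild-type BALB/c mice over 78 weeks old, and the young group was 3 libraries of the same cell type, strain and genotype from mice 3 weeks old. Each library came from 50000 cells. The labels do not say whether the libraries of an age came from separate mice or cultures, so a spread between them may be technical, and no other allele or treatment is given for either age. According to its title, the series links the marrow's age to the growth of B-cell leukaemia by way of the chemokine CXCL13 and its receptor CXCR5.

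The regions were chosen by measured values. From each library's deposited peak list, the 50000 peaks with the highest −log10 q (the peak caller's own significance value) were taken, and overlapping peaks of the 6 libraries were merged on chromosomes 1 to 19 and X. A merged region was kept if it held such a peak in all 6 libraries, was under 2000 bp wide and lay within 1 kb of an end of a protein-coding RefSeq gene. This gave 9909 regions, called members here, of 66216 merged regions (15%). All 6 libraries had a strong peak at 33698 regions, of which 33590 met the width limit; 12868 of these lay inside gene bodies and 10813 lay in distal sequence outside genes, over 1 kb from any gene end. Another 87 gene-end regions with a strong peak in all 6 libraries were too wide.

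At an active gene, transcription factors and the transcription machinery keep nucleosomes away from the start of the gene, and this nucleosome-free stretch takes up the transposase. Genes that every cell needs, such as those for ribosomes, mitochondria and splicing, mostly start in CpG islands, stretches rich in CG dinucleotides that are accessible in nearly all cell types. Factors that bind there include the SP/KLF family at GC boxes, NFY at the CCAAT box, ETS factors, NRF1, CREB/ATF, YY1 and ZNF143. Macrophage-specific genes are switched on by PU.1, C/EBP and AP-1 factors, much of it through enhancers away from the start.

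The following stretches show what the best-ranked members look like upstream of the start. Each is the 120 bases that end just before the annotated start of the named gene, written 5′ to 3′ on the gene's own strand, from the RefSeq promoter table of build GRCm38.p6 (mm10). Each belongs to the best-ranked member whose printed stretch held the motif named and touched no other annotated start or gene, and the motif is in capitals: the ETS letters CCGGAAG in Traf7 (chr17:24527939-24528058, minus strand), the GC box GGGCGG in Leprot (chr4:101647663-101647782, plus strand), the NRF1 letters GCGCATGCG in Mrpl17 (chr7:105811088-105811207, minus strand), the NFY letters CCAAT in Stt3a (chr9:36767623-36767742, minus strand), the CREB/ATF letters TGACGTCA in Troap (chr15:99074853-99074972, plus strand) and ACTACAANT of ZNF143, here on the opposite strand, in Prcc (chr3:87885563-87885682, minus strand).
Traf7: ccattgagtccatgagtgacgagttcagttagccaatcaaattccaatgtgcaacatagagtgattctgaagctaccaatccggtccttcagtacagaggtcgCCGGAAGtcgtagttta
Leprot: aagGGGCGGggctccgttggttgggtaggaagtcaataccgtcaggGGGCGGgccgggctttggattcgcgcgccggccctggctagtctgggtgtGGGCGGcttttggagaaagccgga
Mrpl17: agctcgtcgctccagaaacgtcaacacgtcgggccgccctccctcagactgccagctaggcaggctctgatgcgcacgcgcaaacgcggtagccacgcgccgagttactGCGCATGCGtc
Stt3a: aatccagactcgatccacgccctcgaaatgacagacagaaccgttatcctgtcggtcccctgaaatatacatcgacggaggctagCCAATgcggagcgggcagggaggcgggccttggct
Troap: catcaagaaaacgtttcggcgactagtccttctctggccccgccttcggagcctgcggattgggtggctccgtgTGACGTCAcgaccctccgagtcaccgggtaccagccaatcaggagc
Prcc: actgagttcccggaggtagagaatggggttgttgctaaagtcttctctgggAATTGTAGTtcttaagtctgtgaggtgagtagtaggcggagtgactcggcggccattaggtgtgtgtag
The ETS match of Traf7, a ubiquitin ligase gene, began 17 bases before the start, and the CCAAT of Stt3a, the catalytic subunit of oligosaccharyltransferase, began 35 bases before it. Leprot, which shares its promoter region with the leptin receptor gene, held 3 GC boxes between 117 and 24 bases before the start. In Mrpl17, a mitochondrial ribosomal protein gene, the NRF1 letters began 11 bases before the start. Troap had its CREB/ATF letters 46 bases before the start, and Prcc had the ZNF143 letters 69 bases before it.

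The 6 libraries differed in how much was called. In old replicates 1 to 3 the deposited lists numbered 245667, 227978 and 215947 peaks and spanned 63.8, 48.2 and 49.0 Mb of sequence. In young replicates 1 to 3 they numbered 243924, 223018 and 254410 peaks and spanned 62.2, 52.4 and 66.1 Mb. Old replicates 2 and 3 and young replicate 2 thus had the shorter lists and the least coverage, and read depth is unknown. Old replicate 3 also had narrow peaks of very high −log10 q that no other library shared. The covered length of a region moves with these library totals, and their part in the results below was not tested.

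Members held a small part of each strongest list but most of its top. They took 20.6%, 22.3% and 21.9% of the strongest 50000 peaks in old replicates 1 to 3, and 20.7%, 21.4% and 20.5% in young replicates 1 to 3. Among the strongest 1000 peaks, members took 75.6%, 77.7% and 69.0% in the old libraries and 78.4%, 80.2% and 75.3% in the young ones. The median list rank of the members was 10288, 10156 and 10488 in the old libraries and 9255, 9001 and 10200 in the young libraries, against 19621 to 20393 for constitutive gene-body regions and 19485 to 20401 for distal ones. All 6 libraries thus placed the gene-end regions near the top, and the −log10 q that gives these ranks is also what selected the members.

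**Figure D1:**
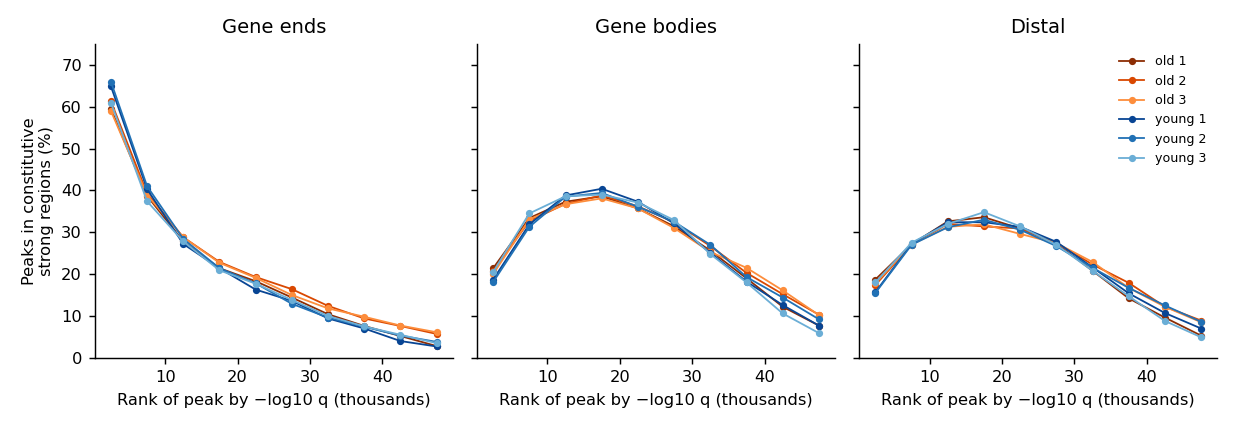
Share of peaks (%, vertical axis) that lie in constitutive strong gene-end, gene-body and distal regions, for successive classes of 5000 peaks ranked by −log10 q (horizontal axis, rank divided by 1000); each line is 1 library, old in brown to orange and young in blue. In the strongest class the gene-end share lay between 59.0% and 61.3% in the old libraries and between 61.0% and 66.0% in the young ones, and it fell steadily with rank, while the other classes peaked in the middle of the list.

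The median fold enrichment at members, the authors' ratio over the local background of a library, was 6.87, 6.4 and 6.37 in the old libraries and 6.84, 6.27 and 6.85 in the young libraries. Most members were a single peak: 1 strong peak lay in 96.1%, 88.2% and 90.2% of members in the old libraries and in 95.7%, 92.5% and 96.6% in the young ones. Member widths ran between 47 and 1997 bp with a median of 990 bp (quartiles 757 and 1223 bp). Deposited peaks of any strength filled a median of 93.0%, 78.2% and 80.1% of a member's width in old replicates 1 to 3. In young replicates 1 to 3 they filled 91.5%, 86.5% and 93.6%. The fill was lowest in the libraries with the least covered sequence.

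At the edges of the selection, the last member by list rank was a region at Slc36a2 whose weakest rank was 50000, and the first region outside, at the histone genes H2bc9 and H3c7, had 50003. The widest member, at Gspt1 and LOC115488671, measured 1997 bp, and the narrowest region beyond the limit, at Egr1, measured 2001 bp. The farthest member lay 1000 bp from the end of LOC115488765, and the nearest region outside lay 1001 bp from the end of Gpt.

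The member with the highest −log10 q in every library lay at the far end of Lars2, the mitochondrial leucyl-tRNA synthetase gene (chr9:123461775-123462211, 437 bp). Its best peak had a −log10 q of 328, 220 and 239 in old replicates 1 to 3 and of 259, 257 and 306 in young replicates 1 to 3. Its fold enrichment was 18.2, 17.2 and 17.0 in the old libraries and 18.3, 18 and 18.7 in the young ones, so the ages overlapped. No list of problem regions was applied here, and whether reads there map to 1 place was not examined.

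Pxmp4, which encodes a peroxisomal membrane protein, ranked 2 in all 6 libraries (chr2:154603410-154604257). Its −log10 q was 174, 107 and 118 in the old libraries and 137, 112 and 154 in the young ones, and its fold enrichment lay between 11.2 and 12.5. Sap130, a subunit of the SIN3A histone deacetylase complex, ranked between 3 and 6 among members in the old libraries and between 3 and 8 in the young ones. Gins2, part of the replicative helicase, had a fold enrichment of 12.4, 11.3 and 11.7 in the old libraries and 12.4, 11.3 and 12.2 in the young ones. Both sets of ranks and folds overlapped between the ages.

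Others of the 12 best-ranked members served general cell functions as well. They lay at Stt3a; at Khsrp, which encodes an RNA-binding splicing regulator, with its neighbour Slc25a41; at Atp5g1, subunit c of mitochondrial ATP synthase; and at Hsd17b12, an enzyme of fatty acid elongation. Further ones lay at Map3k3, a kinase of the MAP kinase cascades; Timm21, of mitochondrial protein import; and Ap2a1, of clathrin-coated vesicles, with its neighbour Tsks. Their worst rank among members over the 6 libraries lay between 16 for Stt3a and 33 for the Ap2a1 region. Atp5g1 had a −log10 q of 125, 84.3 and 94.6 in the old libraries and 118, 78.8 and 129 in the young libraries. None of the genes named here is known mainly for macrophage function.

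Members covered nearly every second protein-coding gene. Of 21631 such genes, 10350 (47.8%) had a member within 1 kb of an end. A single gene lay within reach of 8120 members (81.9%), a pair of genes within reach of 1739 (17.5%) and 3 or more within reach of 50. Having 2 or more members was seen at 1305 genes. The share of genes with a member was 48.9% on the autosomes and 25.8% on the X chromosome; the autosomes ranged between 40.1% on chromosome 7 and 57.2% on chromosome 11.

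The rule did not use strand, so the position relative to the direction of transcription is a property that it left free. Strand was known for 17274 genes (79.9%), those in the promoter table. Of the 8113 members at ends of known strand, 7554 (93.1%) lay within 1 kb of a start and 559 only near the far, 3′ end; the other 1796 members had no strand. Start members were wider, with a median of 1023 bp against 586 bp at far ends. They also ranked better, with a median worst rank among members of 5573 against 8926. Width and the −log10 q behind the rank were both used by the rule, so these contrasts are descriptions. A noncoding RefSeq gene ended or began within 1 kb of 28 of the 559 far-end members.

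After Lars2, the best-ranked far-end members, picked once their values were known, lay at Bcat2 (worst rank 486), a branched-chain amino acid transaminase; Ap3m1 (719), of the AP-3 adaptor complex; and Clec11a (1012), a secreted growth factor. By the rule each had peaks in all 6 libraries. At Clec11a these peaks covered 1167, 1025 and 1026 bp in the old libraries and 1025, 1167 and 1049 bp in the young libraries. The covered lengths of the ages overlapped there.

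The reach of the peaks on each side of a start is given as a description, since the starts were taken for lying inside a member, which by itself puts a peak over nearly all of them. Of the starts in the promoter table, 8341 lay inside a member, and a deposited peak lay over 99.2%, 97.8% and 97.9% of them in old replicates 1 to 3 and over 99.1%, 98.4% and 99.3% in young replicates 1 to 3. Upstream of the start these peaks reached a median of 417, 346 and 354 bp in the old libraries and 412, 385 and 423 bp in the young ones. Downstream they reached 469, 345 and 352 bp in the old libraries and 461, 417 and 465 bp in the young ones. The reach was shortest in old replicates 2 and 3, the libraries with the least covered sequence, and old replicate 1 lay among the young libraries upstream and above them downstream.

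**Figure D2:**
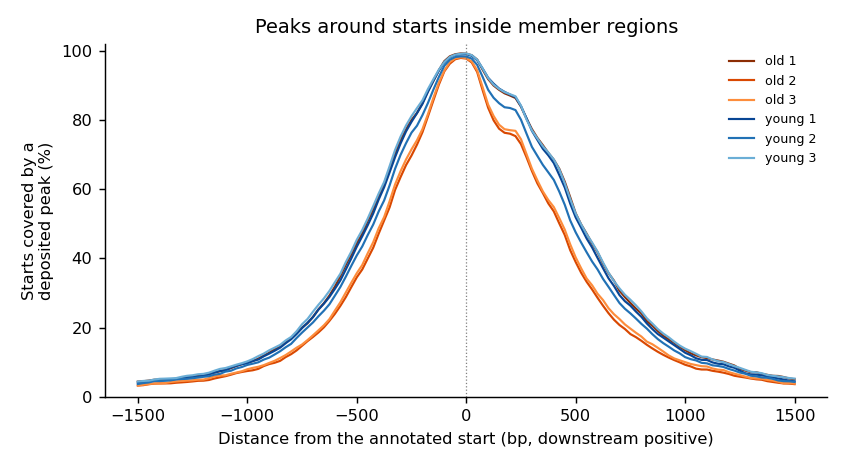
Share of the 8341 starts inside members that were covered by a deposited peak (%, vertical axis), by distance from the annotated start (bp, downstream positive, horizontal axis); each line is 1 library, old in brown to orange and young in blue. The maximum at the start follows from taking starts inside members; old replicates 2 and 3 run lowest on both sides, while old replicate 1 runs with the young libraries.

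Some members held the starts of a pair of genes that are transcribed away from each other. There were 639 such divergent members, 9.5% of the 6727 members with a start inside, with a median of 138 bp between both starts; in 519 of them the starts were at most 300 bp apart. Their median worst rank among members was 3516, against 5478 for members with starts of other arrangements. This rank rests on the −log10 q that chose the members, so the contrast is a description. The best-ranked ones lay between Prr11 and Ska2 (547 bp between starts), the second a protein that attaches chromosomes to the spindle; between BC005624 and Usp20 (338 bp), the second a deubiquitinase; between Aldh6a1 and Lin52 (484 bp), an enzyme of valine breakdown and a subunit of the DREAM cell cycle complex; and between Klhl28 and Togaram1 (206 bp), the second a protein of the cilium. At the Prr11 and Ska2 region, peaks covered 885, 873 and 758 bp in old libraries and 891, 885 and 885 bp in young libraries.

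The stretch between the starts of Npc2, a lysosomal cholesterol carrier, and Isca2, an assembly factor for mitochondrial iron-sulfur clusters, is shown as an example of a divergent member; it was chosen after its values were seen because it is short and was the next in rank. It is chr12:84773113-84773269, given on the plus strand, and the capitals mark 2 CCAAT letters, 2 GC boxes and the ETS letters, each on either strand.
Npc2-Isca2: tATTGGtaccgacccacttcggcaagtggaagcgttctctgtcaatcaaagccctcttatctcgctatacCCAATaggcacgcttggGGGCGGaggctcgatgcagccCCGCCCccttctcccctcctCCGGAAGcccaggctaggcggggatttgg
The pair of CCAAT letters lay on opposite strands, and the ETS letters lay nearest to the start of Isca2. This region ranked 68 or better among members in all 6 libraries.

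The starts inside members were rich in CG. Over the 300 bases of the promoter table (250 before and 50 after the start), the median GC content of member starts was 62%, against 50.3% at the 10525 starts outside every region of the strongest lists and 56.7% at all 21045 starts. The ratio of observed to expected CpG dinucleotides had a median of 0.81 at member starts, 0.25 at starts outside and 0.57 at all starts. These are descriptions of sequence, and the part of GC content in how peaks were called was not tested.

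Of 12 motifs searched on both strands, most were found more often at member starts. The GC box GGGCGG was present at 70% of member starts, against 25.4% of starts outside and 46.7% of all starts. The ETS letters CCGGAAG were present at 22.5% of member starts, 3.05% of starts outside and 11.7% of all starts. Those of NRF1, GCGCATGCG, were present at 4.8%, 0.45% and 2.37% in that order, those of YY1, ATGGCGGC, at 6.1%, 0.67% and 3.05%, and those of ZBTB33, TCTCGCGA, at 2.89%, 0.27% and 1.42%. The CREB/ATF letters TGACGTCA stood at 3.91% of member starts, 0.92% of starts outside and 2.26% of all starts. For the CACGTG letters of USF and MYC these shares were 11.3%, 5.05% and 7.91%.

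The letters of the TATA box, AP-1, PU.1 and NFY ran otherwise. The TATA box letters TATAAA were present at 5.71% of member starts, 19.3% of starts outside and 12.7% of all starts. The AP-1 letters TGANTCA (N for any base) were present at 4.18%, 9.35% and 7.04% in that order. PU.1, the ETS factor that macrophages depend on, has the letters GAGGAAGT, which were present at 3.17% of member starts, 3.17% of starts outside and 3.15% of all starts. CCAAT was nearly as frequent in member starts (41%) as in starts outside (37.4%) and in all starts (38.5%). A match shows only that the letters are there, and overlapping matches of different motifs were each counted.

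Within the members, the share with CCAAT differed with strength by more percentage points than that of any other motif searched. The 8341 member starts were split into 5 groups of equal size by the worst rank of their member. That rank comes from the −log10 q that also chose the members, so the shares by strength are descriptions. CCAAT was present at 61.8% of the strongest group, then at 46.2%, 38.9% and 29.7%, and at 28.6% of the weakest group. The ZNF143 letters ACTACAANT, rare overall at 3.56% of member starts against 0.77% of starts outside and 1.98% of all starts, were present at 6.47% of the strongest and 2.16% of the weakest group. ETS letters were present at 24.9% of the strongest and 15.7% of the weakest group, and GC boxes at 75.5% and 65.9%. TATA letters ran the other way, at 3.54% of the strongest and 6.6% of the weakest group.

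GC content hardly differed between the groups, with medians of 61.3% in the strongest and 62% in the weakest. The median ratio of observed to expected CpG was 0.82 in the strongest and 0.76 in the weakest. When the starts were divided by GC content, CCAAT was present at 65.8% of the strongest and 36.2% of the weakest starts with a GC content up to 58.3%. In the middle class (58.7% to 65.7% GC) the shares were 66.3% of the strongest and 29.5% of the weakest, and in the class of 66.0% GC or more they were 49.5% and 19.7%. The CCAAT share was thus higher in the strongest than in the weakest group in each GC class. The same held for the ETS and ZNF143 letters. Starts were not divided by CpG ratio, and the part of base composition was not tested.

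**Figure D3:**
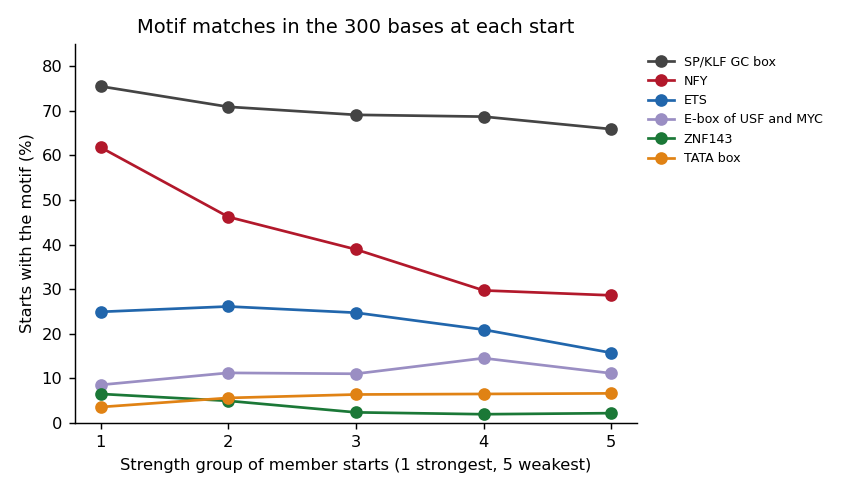
Share of member starts (%, vertical axis) whose 300 promoter bases held each motif, for 5 equal groups of the 8341 member starts ordered by strength (horizontal axis, 1 the strongest and 5 the weakest). CCAAT (NFY) runs between 61.8% in the strongest and 28.6% in the weakest group, while the GC box stays between 75.5% and 65.9%. The order of strength rests on the −log10 q that also chose the members.

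The motifs also had preferred places. CCAAT matches at member starts lay at a median of 85 bases upstream, with 29.7% of them between 100 and 51 bases upstream and 6.5% downstream of the start. ZNF143 letters lay at a median of 88 bases upstream and ETS letters at 36 bases upstream. YY1 letters lay at a median of 12 bases downstream, and 60.2% of them were downstream of the start.

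Genes for general cell functions had a member far more often than protein-coding genes at large (47.8%). The lists were assembled with earlier results of these data known, and their shares are descriptions. A member lay at 46 of 48 spliceosome and splicing factor genes (95.8%), at 41 of 43 genes of RNA polymerase II and Mediator (95.3%), at 74 of 78 mitochondrial ribosomal protein genes (94.9%), at 35 of 37 aminoacyl-tRNA synthetase genes (94.6%) and at 78 of 84 cytosolic ribosomal protein genes (92.9%). Mitochondrial import followed with 23 of 25 (92.0%), proteasome subunits with 44 of 48 (91.7%), translation initiation factors and their regulators with 49 of 55 (89.1%), and the anaphase-promoting complex, MCM and ORC with 26 of 30 (86.7%). Nucleoporins had 18 of 21 (85.7%) and oxidative phosphorylation had 82 of 96 (85.4%).

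The few genes of these lists without a member included copies expressed in particular tissues. Without one were Snrpn, an imprinted splicing gene, and Srsf12; Med10 and Med12l; Mrpl24, Mrpl4, Mrps2 and Mrps23; Aars2 and Eprs; Timm8a2 and Tomm20l; and Psma8 and Psmb11, proteasome subunits of testis and thymus, with Psma6 and Psmf1. Anapc15, Anapc7, Orc1 and Orc4 also had none; 1 gene of that list had only a region over the width limit. A deposited peak of any strength lay at an end of 46 of the 48 proteasome genes in all 6 libraries, so lacking a member is not lacking a peak.

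Within these lists the best-ranked members were at Rps26 (worst rank among members 287), Rps19 (299) and Rpl27 (393) of the cytosolic ribosome, and at Mrpl18 (179), Mrpl34 (236) and Mrps14 (344) of the mitochondrial one. At Rps19, a protein of the small subunit, peaks covered 973, 953 and 1006 bp in old libraries and 1145, 972 and 1106 bp in young libraries. Old and young overlapped. Among the others, Eif2ak3, the PERK kinase of the unfolded protein response, ranked 93, Med19 99 and Nup98 129. Psmc4, an ATPase of the proteasome, ranked 257 and Mcm3, of the replicative helicase, 264.

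Of the vacuolar ATPase, the proton pump of lysosomes, 19 of 26 genes had a member (73.1%), led by Atp6v1d (987). The replication-dependent histone genes had a member at 46 of 62 (74.2%); since they are clustered, these 46 genes shared 30 regions, and H2ac6 and H2bc4 lay at the same one. Numbered zinc finger protein genes had one at 244 of 367 (66.5%), led by Zfp317 (97). Families of sensory, epithelial and body-patterning genes had few members: 3 of 1106 olfactory receptor genes (0.3%), 2 of 53 keratin genes (3.8%) and 10 of 39 Hox genes (25.6%). The 3 olfactory receptor genes, Olfr433, Olfr111 and Olfr1509, had worst ranks between 8814 and 9746, and the keratin genes were Krt80 and Krt86. A deposited peak of any strength lay at an end in all 6 libraries at 1.9% of olfactory receptor, 26.4% of keratin and 69.2% of Hox genes.

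**Figure D4:**
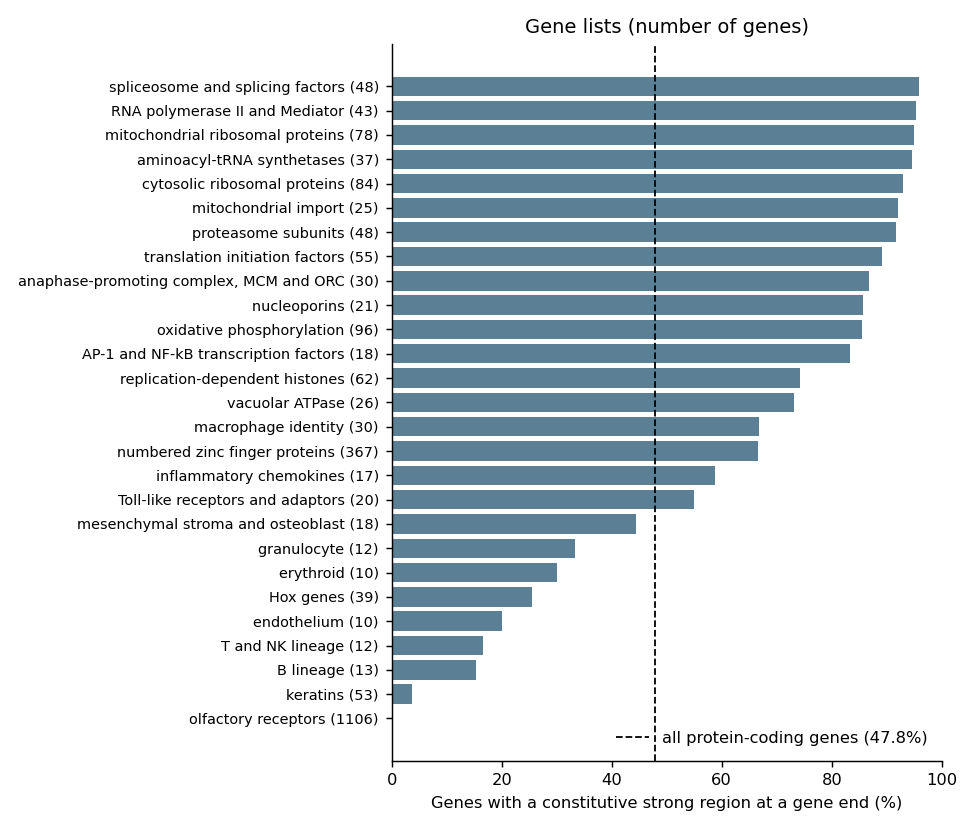
Share of the genes of each list (%, horizontal axis; number of genes in parentheses) that had a constitutive strong region within 1 kb of a gene end; the dashed line marks all protein-coding genes (47.8%). Lists of general cell functions, histones included, lie between 73.1% and 95.8%, numbered zinc finger proteins at 66.5%, macrophage and inflammatory genes between 55.0% and 83.3%, and lists of other cell types between 15.4% and 44.4%.

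Macrophage genes lay between these extremes. A member lay at 20 of 30 macrophage identity genes (66.7%), and their median best rank among members was 8093, against 5383 for all protein-coding genes with a member. The −log10 q behind these ranks also chose the members, so this is a description. The best-ranked were Lgmn, a lysosomal protease (1993), Cebpa, a myeloid transcription factor (2721), and Laptm5, a lysosomal membrane protein (4968). Spi1, the gene of PU.1 (7806), Mertk, a receptor for dying cells (7417), Lyz2, lysozyme (8381) and Tyrobp, a signalling adaptor (8534), each had one. Peaks at Spi1 covered 400, 618 and 701 bp in old libraries and 624, 435 and 573 bp in young libraries, with no order between the ages.

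The label of the cells was checked against its sort markers. Adgre1, which encodes F4/80, had a member (chr17:57358405-57358967, worst rank among members 9307), covered over 399, 360 and 362 bp in old libraries and 559, 365 and 432 bp in young libraries. Siglec1, which encodes CD169, had peaks at a gene end in all 6 libraries but no member: its best list rank was 85909, 120362 and 51718 in the old libraries and 56007, 41482 and 66044 in the young ones. Aif1, Cd9, Clec7a, Csf1r, Ctss, Fcgr3, Marco, Mrc1 and Msr1 had no member either; of these, 7 had end peaks in all 6 libraries, Aif1 in 1 and Marco in none. The rule looks only at the ends of the annotated gene span, so a start that lies inside the span is not seen.

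Of the genes in the series title, Cxcr5 had a peak at a gene end in all 6 libraries but no member, with best list ranks of 120083, 133393 and 125423 in the old libraries and 78214, 130604 and 120092 in the young ones. Cxcl13 had no deposited peak within 1 kb of an end in any library, which says only that none was called.

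Innate immune genes had members at 11 of 20 Toll-like receptor and adaptor genes (55.0%), 10 of 17 inflammatory chemokine genes (58.8%) and 15 of 18 AP-1 and NF-kB genes (83.3%). The adaptors led the first list: Myd88 (worst rank among members 650), Ticam1 (1074) and the kinase Irak4 (1508). Tlr2 and Tlr9 were among the receptors without one. Relb (1442), Jund (2541) and Jun (2991) led the transcription factors, and Batf, Batf3 and Nfkb2 had none. Ccl2, the monocyte chemoattractant, led the chemokines (3115), followed by Cxcl10 (4089) and Ccl3 (4106).

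Genes of other marrow cells had members less often than macrophage genes, though the stroma list lay near the 47.8% of all protein-coding genes. They were found at 8 of 18 genes of mesenchymal stroma and osteoblasts (44.4%), led by Runx2, the osteoblast transcription factor (8091), and including Col1a1, Col1a2, Alpl and Spp1. The other lists had 4 of 12 for granulocytes (33.3%; Mmp8, Camp, S100a8 and Prtn3), 3 of 10 for erythroid cells (30.0%; Klf1 and Tfrc among them), 2 of 10 for endothelium (20.0%; Kdr and Vwf), 2 of 12 for T and NK cells (16.7%; Cd3d and Cd4) and 2 of 13 for the B lineage (15.4%; Ebf1 among them). Pax5 and Cd79a were without one. In bulk samples, cells of another type and open chromatin within the macrophages cannot be told apart. These markers had a median difference between old and young, on the log2 scale defined below, of −0.04 for stroma, 0.045 for granulocytes, 0.054 for erythroid cells, −0.09 for endothelium and for T and NK cells and −0.16 for the B lineage; their part in the age comparison was not tested.

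Old and young libraries were compared by the covered length, the base pairs of a region that lie under any deposited peak of a library. It was divided by the library's total over all regions, and log2(bp + 100) was tested with limma over all regions of the strongest lists. A member had to hold a strong peak at both ages, so regions open at 1 age only could not be among them, and the members' count is a description. Of 9893 members tested (16 fell below the filter of 100 bp), none had an adjusted p under 0.05 (limma, Benjamini-Hochberg), against 0.0727% of all regions (47 of 64644). Among the constitutive gene-body and distal regions, 1 of each kind passed, so few calls were not particular to members. At an unadjusted p under 0.05 there were 587 members (5.93%), against 7100 of all regions (11.0%).

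The differences at members were small, and the measure limits them. Covered length cannot exceed the width of a region, which the strong peaks of these libraries set. Every library also had to hold a strong peak at a member, so the shares here are descriptions. The log2 difference between old and young was within 0.5 at 99.3% of members, 97.9% of gene-body and 97.9% of distal constitutive regions and 96.2% of all regions. It exceeded 0.5 in either direction at 71 members and exceeded 1 at 1. The median was 0.01 for members and 0.02 for all regions, and the median standard error was 0.10 for members and 0.12 for all regions. All old values lay on one side of all young values at 1092 members (11.0%), 560 above and 532 below, against 16.2% of all regions. Without the division by library totals, these were 77 above and 1179 below, so the direction of the small differences rests on the scaling.

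The members with the smallest p were taken among those whose scaled covered lengths did not overlap between the ages, once their values were known. All of them were narrower in old macrophages, and none passed the adjustment. At the start shared by Mydgf, the myeloid-derived growth factor, and Tnfaip8l1 (chr17:56183291-56184107), peaks covered 462, 380 and 366 bp in old libraries and 774, 712 and 805 bp in young libraries. The old values lay below all young values, with a log2 difference of −0.69 (SE 0.09, adjusted p = 0.0599, limma). Rhou, a small GTPase of the cytoskeleton, had 746, 454 and 475 bp in old libraries and 1081, 1067 and 1065 bp in young libraries, a log2 difference of −0.76 (SE 0.12, adjusted p = 0.083, limma). Old replicates 2 and 3 were lowest there. A shorter covered length did not go with a lower fold enrichment of the best peak at these regions. Fold enrichment at Rhou was 7.07, 6.47 and 6.85 in old libraries and 5.71, 4.63 and 5.2 in young libraries. For the Mydgf and Tnfaip8l1 region it was 9.69, 8.24 and 7.55 in old libraries and 7.42, 6.27 and 7.32 in young libraries.

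E2f2, a cell cycle transcription factor, had 197, 186 and 161 bp in old libraries and 341, 346 and 364 bp in young libraries (log2 difference −0.60, adjusted p = 0.083, limma). Mid1ip1, a regulator of fatty acid synthesis, had 216, 166 and 192 bp in old libraries and 366, 346 and 362 bp in young libraries (adjusted p = 0.0839, limma). Mars2, the mitochondrial methionyl-tRNA synthetase, had 995, 861 and 862 bp in old libraries and 1337, 1250 and 1342 bp in young libraries (log2 difference −0.39, adjusted p = 0.0858, limma). LOC115490200, a gene model, had 761, 525 and 541 bp in old libraries and 1061, 1050 and 1056 bp in young libraries (adjusted p = 0.0751, limma). At each of these the ages did not overlap, which the choice fixed for scaled lengths. Fold enrichment at Mid1ip1 was 5.36, 5.19 and 5.06 in old libraries and 4.4, 4.38 and 3.88 in young libraries. It was also higher in old at Mars2 (6.96, 7.34 and 6.79 against 6.05, 6.06 and 5.56). For LOC115490200 it was 8.72, 7.17 and 7.16 in old and 7.16, 5.99 and 7.13 in young. The ages overlapped at E2f2, with 5.33, 4.4 and 4.46 in old and 5.94, 4.83 and 5.97 in young.

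**Figure D5:**
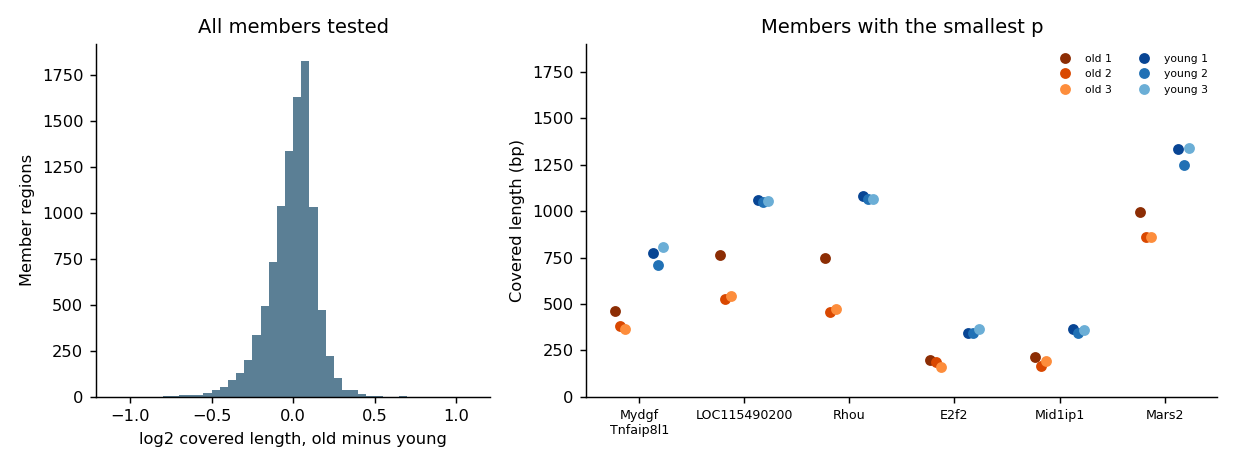
Left, number of member regions (vertical axis) by their log2 difference in covered length, old minus young (horizontal axis); right, covered length (bp, vertical axis) in each library for the 6 members with the smallest p, old in brown to orange and young in blue. The left distribution centres near 0 (median 0.01). The 6 on the right were taken among members whose scaled covered lengths did not overlap between the ages. In all 6 the 3 old libraries lie below the 3 young ones, although none has an adjusted p under 0.05.

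Among members whose scaled covered lengths did not overlap between the ages, the log2 difference was lowest at Khnyn (−0.87), a member of a family of RNA-binding nucleases, then at Slc43a2 (−0.81), an amino acid transporter, at Rhou and at Tap2 (−0.75), a peptide transporter of antigen presentation. The adjusted p of Khnyn, Slc43a2 and Tap2 lay between 0.171 and 0.298 (limma). In unscaled base pairs Khnyn had 582, 175 and 289 bp in old libraries and 704, 576 and 869 bp in young libraries, so old replicate 1 overlapped the young values there. At Slc43a2, peaks covered 404, 179 and 199 bp in old libraries and 542, 545 and 546 bp in young libraries. In the other direction, the genes given are among those with the larger differences, but not the full order of them. Zfp51 had 219, 168 and 339 bp in old libraries and 127, 115 and 130 bp in young libraries (log2 difference 0.65, adjusted p = 0.235, limma). Ubd, a ubiquitin-like modifier, had 357, 305 and 202 bp in old libraries and 162, 200 and 167 bp in young libraries (log2 difference 0.54, adjusted p = 0.254, limma). These too were picked for their values.

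None of the members in the gene lists had an adjusted p under 0.05 for age (limma), and at an unadjusted p under 0.05 there were 512 of 8932 regions at all protein-coding genes, 12 of 241 at numbered zinc finger genes, 6 of 44 at proteasome genes and 2 of 78 at cytosolic ribosomal protein genes. The median log2 differences of the lists lay between −0.16 for the B lineage, with 2 members, and 0.08 for Toll-like receptors and adaptors, beside 0.01 for members at all protein-coding genes. Cytosolic ribosomal protein genes had a median of 0.03 and macrophage identity genes −0.04. Ccl2 was covered over 581, 581 and 593 bp in old libraries and 791, 931 and 1033 bp in young libraries, a log2 difference of −0.47 that did not pass (adjusted p = 0.207, limma). Fosb, an AP-1 gene, had 621, 553 and 646 bp in old libraries and 1006, 878 and 998 bp in young libraries (log2 difference −0.49, adjusted p = 0.106, limma). At both genes the old values lay below the young ones.

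When only the strongest 50000 peaks of each library were counted, 49 members passed, 8 wider and 41 narrower in old (0.495% of 9893), against 7.1% of all regions. These lists chose the members, so nothing is read from that count. The Mydgf and Tnfaip8l1 region, Rhou, Mid1ip1, Mars2 and LOC115490200 were among those that passed. Counting peaks with a −log10 q of 5 or more gave 6 members, 1 wider and 5 narrower (0.0607% of members tested), against 1.08% of all regions.

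The median width of strong sequence in a member was 867, 707 and 722 bp in the old libraries and 855, 794 and 870 bp in the young libraries. This averaged 765.3 ± 88.4 bp in old and 839.7 ± 40.3 bp in young libraries (SD, n = 3 each), a difference of −74.3 bp, and the libraries of the ages overlapped. It was −125.2 bp without old replicate 1 and −45.2 bp without old replicate 2. These widths come from the lists that chose the members, so they are given as a description with no test.

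The sequence beside the members was not used by the rule. Within 1 kb on each side of a member, deposited peaks covered on average 161.7, 110.8 and 118.4 bp in the old libraries and 157.1, 142.5 and 168.6 bp in the young ones, summed over both sides. Over the 6 libraries this averaged 143.2 ± 23.9 bp at members, 110.9 ± 18 bp at constitutive gene-body regions and 101.4 ± 16.4 bp at distal ones (SD). Members exceeded gene-body regions by 32.3 bp and distal regions by 41.7 bp, in 6 of 6 libraries each. Each comparison had p = 0.03125 (two-sided exact permutation test by sign flips within libraries), the smallest that 6 libraries allow. Adjusted over both comparisons it was 0.03125 in that test. All libraries were measured over the same regions, so this p says nothing about the spread between regions. Members ranked higher than the other classes, and the classes were not matched for strength.

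These differences depended on the window and the peaks counted. With 2 kb on each side, members exceeded gene-body regions by 7.2 bp and distal regions by 31.1 bp. With peaks of a −log10 q of 5 or more, the excess was 22.5 bp over gene-body and 26.2 bp over distal regions. Each of these had p = 0.03125 in the same exact permutation test. The share of regions with any flanking peak within 2 kb was lower at members than at gene-body regions in 2 libraries. It was 56.75% against 57.74% in old replicate 2 and 58.99% against 59.02% in old replicate 3. In old replicate 1 and the young libraries it was higher at members.

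By age, flanking coverage showed no called difference. Of 4872 members with enough flanking coverage to test (a mean of 50 bp or more), none had an adjusted p under 0.05 (limma), and the same held for all regions (0% of 31965). At an unadjusted p under 0.05 there were 390 members (8.0%), against 3510 of all regions (11.0%). The median log2 difference was 0.02 for members and 0.01 for all regions; without scaling by library totals it was −0.17 for members and −0.18 for all regions, so only differences relative to that shift can be read.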

How the data were processed

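Open chromatin was measured by Omni-ATAC in 6 macrophage libraries of 50000 cells, 3 old and 3 young by their titles, sequenced as 125 bp paired-end reads on 4 lanes, per the labels. Per the submitters' processing notes, the tools, with no roles stated, were MACS2 2.1.0.20140616, Bowtie2 2.2.6, Picard, SAMtools, cutadapt 1.14 and Trim Galore 0.4.4, and the build was mm10. One broad peak list per library was deposited, with for each peak a score, a fold enrichment (a ratio over background), a −log10 p and a −log10 q by the authors' caller; these deposited values ordered peaks or set a minimum inside 1 list, and where they are printed per library they are descriptions that also move with library depth, with no test. For duplicate removal, shifts of read ends and masking, the step is not given in the sources used here. Read depth is unknown, so no counting error can be given, and a place with no peak may still be accessible.

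Gene spans and promoter sequences came from RefSeq (GRCm38.p6); no genome sequence was used, and strand was known only for genes in the promoter table. Covered length was scaled to the library total and tested, old minus young, with limma 3.58.1 in R 4.3.3 (trend, robust) on log2(bp + 100), which understates changes of narrow regions, with Benjamini-Hochberg adjustment over all regions tested; printed base pairs are unscaled. The fit was tested on simulated data. Single values were compared by exact permutation tests. P-values measure only the spread between libraries, which may be technical. Python 3.11.15, numpy 2.4.6, pandas 2.3.3, scipy 1.17.1 and matplotlib 3.10.9 were used.

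The members, gene lists and tests were chosen with earlier results of these data known. Named were the 12 members ranking best in their weakest library; up to 8 called members per direction; the 3 best-ranked genes of each list, and those without a member where they were 5 or fewer; the 4 best divergent members; regions at each threshold; the best-ranked promoter holding a motif, outside chromosome 18; and Cxcl13, Cxcr5, Adgre1 and Siglec1. Other genes were chosen after their values were seen. Some genes that the rule names are not reported here. Motif search covered 300 bases per start on both strands.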

Additional observations from a re-analysis of the deposited data

How the results depend on the processing

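The number of members was 7819 and 11505 with 30000 and 70000 peaks per library, 9013 and 11365 with gene-end windows of 500 and 2000 bp, 9996 with no width limit and 9918 when peaks had to overlap by 50 bp, beside 9909. The count of members differing by age, 0, was 1 with quantile normalization and 1 with a pseudocount of 400 bp (the Mydgf and Tnfaip8l1 region in both, adjusted p 0.0439 and 0.0445, limma), 1 with no filter (Ctc1), 49 with the strongest 50000 peaks and 6 with a −log10 q of 5 or more; leaving out 1 library gave 0 to 2, the 2 (Fmc1 and Gm35315) without young replicate 2. Over all 14 alternatives the adjusted p of the Mydgf and Tnfaip8l1 region ran between 0.00159 and 0.158. In the flanks, the count of 0 was 2 with quantile normalization, 1 with a pseudocount of 400 bp and 1 with a −log10 q of 5 or more, and 0 without any 1 library. With 5 libraries the flank excess of members was 31.0 to 34.0 bp over gene-body and 40.0 to 43.8 bp over distal regions, with p = 0.0625 (exact permutation test), the smallest that 5 libraries allow. The width difference between the ages kept its sign in all 7 alternatives. The causes of these changes were not tested, except that fewer libraries raise the smallest p.

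With a replicate block, 0 members were called in the regions and 0 in the flanks (limma), with 575 and 389 at an unadjusted p under 0.05. Deviations of same-numbered old and young libraries correlated at 0.02, 0.08 and −0.06 in the regions, and not every library correlated best with its own number, so the numbers were not taken to pair the libraries.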

Other observations

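Old replicate 3 differed from the other libraries at the very top of its list. Of its 150 strongest peaks, 125 overlapped no strongest peak of another library, with a median width of 67 bp, and 12 lay at members. In the other 5 libraries between 0 and 10 of the 150 strongest peaks were unshared, and between 110 and 117 lay at members. In old replicate 3, 56 peaks had the same −log10 q of 125.4, and none of them lay at a member. Since members needed a strong peak in every library, such unshared peaks added none, but they lower the list ranks of members in that library.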
